A study of Mus musculus with 6 samples.

Results

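The cytochrome P450 genes of families 1 to 3 were compared between intestinal epithelial cells of 3 caspase-8 deficient and 3 floxed control mice. Every gene whose annotated symbol reads Cyp, then 1, 2 or 3, one lower-case letter and a number was taken, and each was represented by its brightest probe set paired with a single gene. This gave 43 genes of the 18193 on the array, read by 52 probe sets. All 6 animals were of the C57BL/6 strain and carried the floxed casp8 gene. The deficient animals also carried villinCre, in which the villin promoter drives Cre recombinase in the gut epithelium, and the controls lacked it. The sources used here give no sex, age, gut segment or floxed exons. Each animal gave 1 array, whose deposited log2 values had been made with RMA (robust multi-array average). A level below is such a log2 signal, and a difference is deficient minus control on that scale with its standard error (SE). Signals of different probe sets cannot be set against each other as amounts of transcript.

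Cytochromes P450 are haem enzymes of the endoplasmic reticulum that add an oxygen atom to fatty, poorly soluble molecules. Families 1 to 3 handle most drugs, food-borne chemicals and pollutants, and several of them also oxidise arachidonic acid, steroids and retinoids. In the gut, enterocytes of the villus carry them and so meet swallowed compounds before the liver does. Family 1 is induced through the aryl hydrocarbon receptor (Ahr), and much of the Cyp2b, Cyp2c and Cyp3a subfamilies through the nuclear receptors PXR (Nr1i2) and CAR (Nr1i3).

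Promoter sequences were taken as RefSeq windows on GRCm38.p6 that run from 250 bases before a gene's start to 50 after it. Of the 43 genes, 35 had a window, with 38 windows in all, since 3 genes have more than 1 listed start, with overlapping windows in Cyp3a25 and Cyp2j13. Windows are shown for the brightest Cyp3a and Cyp2c genes that hold the letters CAAAGTCCA, a motif bound by the enterocyte and liver factor HNF4A (in capitals). Cyp3a11 lies at chr5:145879805-145880104 on the minus strand, Cyp2c65 at chr19:39060756-39061055 on the plus strand and Cyp2c68 at chr19:39741052-39741351 on the minus strand.
Cyp3a11: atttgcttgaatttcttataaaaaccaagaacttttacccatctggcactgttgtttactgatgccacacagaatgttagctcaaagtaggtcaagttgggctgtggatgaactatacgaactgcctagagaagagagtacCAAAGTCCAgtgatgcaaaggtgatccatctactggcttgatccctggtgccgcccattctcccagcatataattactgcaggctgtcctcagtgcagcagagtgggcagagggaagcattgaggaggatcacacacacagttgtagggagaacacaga
Cyp2c65: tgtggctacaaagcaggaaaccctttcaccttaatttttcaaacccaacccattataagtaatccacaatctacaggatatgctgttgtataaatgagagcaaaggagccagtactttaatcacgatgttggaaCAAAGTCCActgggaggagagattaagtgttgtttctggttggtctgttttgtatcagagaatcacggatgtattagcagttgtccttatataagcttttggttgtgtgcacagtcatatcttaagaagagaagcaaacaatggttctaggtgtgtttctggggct
Cyp2c68: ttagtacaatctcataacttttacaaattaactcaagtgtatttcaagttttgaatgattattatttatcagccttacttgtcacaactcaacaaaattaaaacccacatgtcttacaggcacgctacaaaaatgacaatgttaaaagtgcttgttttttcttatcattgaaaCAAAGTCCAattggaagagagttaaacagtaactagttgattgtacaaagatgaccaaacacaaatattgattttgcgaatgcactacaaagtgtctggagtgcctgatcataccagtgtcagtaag

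Cyp2d26, the gene that passed the test described below, is shown with its match to the TATA box TATAAA (capitals, here the reverse complement), at chr15:82794196-82794495 on the minus strand. Cyp1a1 is shown with its match to GCGTG, the core that the Ahr complex binds (capitals), at chr9:57697363-57697662 on the plus strand.
Cyp2d26: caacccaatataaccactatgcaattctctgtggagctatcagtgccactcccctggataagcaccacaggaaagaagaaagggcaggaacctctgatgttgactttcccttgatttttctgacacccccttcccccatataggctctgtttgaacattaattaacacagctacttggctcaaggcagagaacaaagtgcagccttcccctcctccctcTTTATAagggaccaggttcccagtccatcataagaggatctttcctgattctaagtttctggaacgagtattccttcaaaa
Cyp1a1: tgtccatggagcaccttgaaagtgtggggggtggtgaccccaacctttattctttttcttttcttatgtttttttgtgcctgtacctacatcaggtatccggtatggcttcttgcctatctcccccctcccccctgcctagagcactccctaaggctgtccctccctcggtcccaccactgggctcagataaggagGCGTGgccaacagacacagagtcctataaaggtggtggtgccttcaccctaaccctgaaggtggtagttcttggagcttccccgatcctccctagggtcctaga

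In all, 8 motifs were searched on both strands, none of which contains another. CAAAGTCCA was in 13.2% of the 38 windows, against 0.475% of the 32851 windows of all genes. Its 5 genes were Cyp3a11, Cyp2c65, Cyp2c68, Cyp2c70 and Cyp3a16, with signal differences between deficient and control cells of 0.15, 0.53, 0.45, 0.07 and 0.05. TATAAA was in 47.4%, against 13.6% of all windows, and AGGTCA, a sequence that nuclear receptors bind, in 34.2%, against 16.3%. CCAAT was in 44.7%, against 37.4%. The share was below that of all windows for GCGTG (21.1% against 32.4%), the GC box GGGCGG (15.8% against 35.7%), AGTTCA of PXR and CAR elements (7.89% against 14%) and GTTAAT of HNF1 sites (5.26% against 7.1%). A match shows letters, not binding. Many of these genes are close relatives, and those with CAAAGTCCA are Cyp2c genes of chromosome 19 and Cyp3a genes of chromosome 5. Windows of related genes are not independent, and overlapping windows of the same gene were counted separately. The shares therefore describe the windows only.

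Casp8 itself had 9.27, 9.56 and 10.40 in the deficient cells and 10.53, 9.74 and 10.24 in the controls. Its difference of -0.43 (SE 0.31) did not pass limma's test (adjusted p = 0.518), and a probe set outside the floxed part would not report the deletion. The 10 markers of intestinal epithelium averaged 12.04 to 12.14 in the deficient arrays and 12.03 to 12.19 in the controls. The 3′ minus 5′ signal of the Gapdh control probe sets, which widens as RNA degrades, was 0.21 to 0.29 in the deficient arrays. In control replicates 1, 2 and 3 it was 0.68, 0.93 and 0.22. It thus varied mostly among the controls and partly with group. Fits below that use it as a covariate cannot cleanly separate it from group. Markers of kidney tubule and endothelium stood apart on deficient replicate 1, as given below beside Cyp2j5 and Cyp1b1.

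Of the 43 genes, 1 was higher in the deficient cells and 0 were lower at an adjusted p of 0.05 over all genes (limma), while 42 did not pass. Over all 18193 genes, 0.308% were called higher and 0.467% lower. At an unadjusted p under 0.05, 7 of the 43 were higher, against 8.12% of all genes, and 2 were lower, against 8.53%. The groups did not overlap in 10 of the 43, against 22.7% of all genes. In 8 of these every deficient array lay above every control (11.5% of all genes), and in 2 below (11.2%). The median difference was 0.09 over the 43 genes and 0.02 over all genes. Only Cyp2c29 differed by at least 1 on the log2 scale, which 1.37% of all genes did. In bulk samples, more RNA of a gene per cell and more of the cells that express it cannot be told apart.

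**Figure D1:**
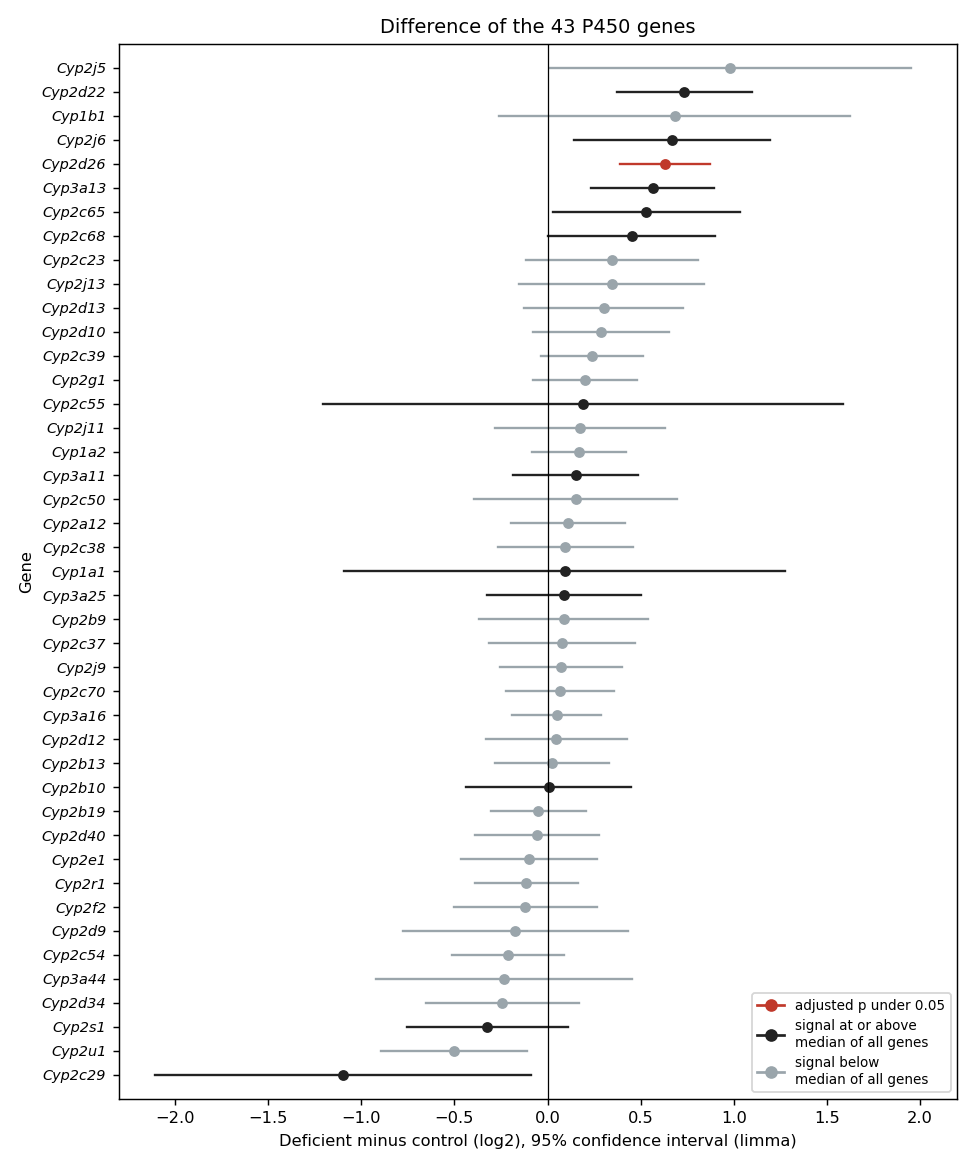
Difference of each of the 43 P450 genes, deficient minus control on the log2 scale, with limma's 95% confidence interval. Cyp2d26, in red, passed at an adjusted p of 0.0475; black marks genes whose mean signal is at or above the median of all genes and grey those below it.

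The mean signal over the 6 arrays was at or above the median of all genes, 5.97, in 13 of the 43 genes and below it in 30. The 13 were Cyp3a11, Cyp3a13, Cyp2d26, Cyp3a25, Cyp2c65, Cyp2b10, Cyp2j6, Cyp2c68, Cyp2c55, Cyp2s1, Cyp2d22, Cyp1a1 and Cyp2c29. In 11 of the 13 the difference was positive, against 48.2% of all genes at or above that median, and their median difference was 0.19. Without control replicate 2 the difference was positive in 8 of the 13 and the median was 0.08. With another array left out the median lay between 0.23 and 0.56, and 9 to 11 were positive. All deficient arrays lay above all controls in 5 of the 13, against 14.5% of the same genes.

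**Figure D2:**
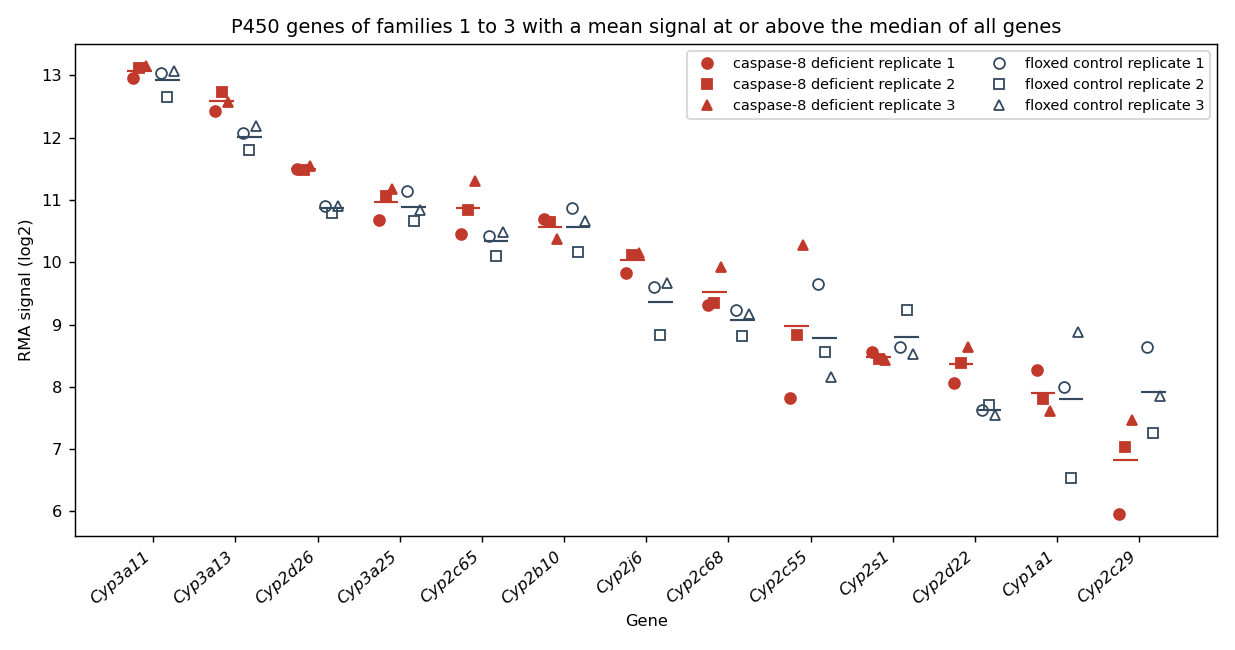
Log2 RMA signal of the 13 P450 genes at or above the median signal of all genes, by array; filled red marks are caspase-8 deficient animals, open marks floxed controls, marker shapes replicate numbers and bars group means (n = 3 each). The groups are apart for Cyp3a13, Cyp2d26, Cyp2j6, Cyp2c68 and Cyp2d22, and widely spread for Cyp2c55, Cyp1a1 and Cyp2c29.

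The Cyp2d subfamily oxidises many basic drugs in the liver and gut. Cyp2d26 was the gene that passed. It read 11.49, 11.47 and 11.54 in the deficient cells, against 10.91, 10.80 and 10.91 in the controls, and the groups lay well apart with little spread in either. It rose by 0.63 (SE 0.10), or 1.55-fold (limma adjusted p = 0.0475). Leaving out any 1 of the 6 arrays kept the difference between 0.59 and 0.65 but lost the call (adjusted p = 0.0636 to 0.190). With the Gapdh 3′ minus 5′ difference as a covariate it was 0.58 (adjusted p = 0.286).

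Cyp2d22, proposed as the mouse counterpart of the human drug-metabolising enzyme CYP2D6, read 8.07, 8.39 and 8.63 in the deficient cells, against 7.63, 7.71 and 7.55 in the controls. Every deficient array lay above the controls. The difference of 0.73 (SE 0.16), or 1.66-fold, missed the threshold (limma adjusted p = 0.0886). Without deficient replicate 1 it was 0.88 and passed (adjusted p = 0.0370), and it also passed when genes under the median signal were left out (adjusted p = 0.0450). With array weights it passed too (limma adjusted p = 0.0128). It did not pass without control replicate 1 or 2 (limma adjusted p = 0.268 and 0.201). With the Gapdh difference as a covariate Cyp2d22 stood at 0.79 (limma adjusted p = 0.384). Its second probe set stood at 0.50. Of the other 6 Cyp2d genes, all below the median signal, the groups overlapped in each, with differences from -0.24 for Cyp2d34 to 0.30 for Cyp2d13, a transcribed pseudogene. Among them Cyp2d9, a steroid hydroxylase of male liver, was at -0.17.

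The Cyp3a subfamily holds the main drug-oxidising P450 enzymes of gut and liver. Cyp3a13 read 12.43, 12.73 and 12.58 in the deficient cells, against 12.07, 11.80 and 12.18 in the controls. The groups did not overlap, and the difference was 0.56 (SE 0.14), or 1.48-fold, without passing (limma adjusted p = 0.123). Without control replicate 2, its lowest array, the difference was 0.46. Cyp3a11, the PXR-induced gene usually set beside human CYP3A4, whose promoter is printed above, read 12.95, 13.12 and 13.14 in the deficient cells, against 13.04, 12.65 and 13.08 in the controls. These groups overlapped, with a difference of 0.15 (95% confidence interval -0.18 to 0.49), or 0.02 without control replicate 2. Cyp3a25 read 10.67, 11.07 and 11.18 in the deficient cells, against 11.15, 10.66 and 10.84 in the controls, and overlapped too (difference 0.09, interval -0.33 to 0.50). Its difference ran from -0.02 without control replicate 2 to 0.24 without deficient replicate 1. Cyp3a44 at -0.23 and Cyp3a16 at 0.05 were dim. The pair Cyp3a41a and Cyp3a41b share 1 probe set, which averaged 3.52 ± 0.52 in the deficient cells and 3.22 ± 0.66 in the controls (SD, n = 3 each), and that shared by Cyp2a4 and Cyp2a5 averaged 3.07 ± 0.19 in the deficient cells and 3.24 ± 0.20 in the controls.

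The Cyp2j enzymes convert arachidonic acid to epoxides that act on vessels and inflammation. Cyp2j6, a member found in the small intestine, read 9.83, 10.12 and 10.15 in the deficient cells, against 9.60, 8.83 and 9.67 in the controls. All deficient arrays were above all controls, with control replicate 2 far below the rest. The difference of 0.67 (SE 0.23), or 1.59-fold, did not pass (limma adjusted p = 0.212), and a second probe set stood at 0.70. Without control replicate 2 it was 0.40, and with the Gapdh difference as a covariate 0.27. Cyp2j11, Cyp2j9 and Cyp2j13 lay at 0.18, 0.07 and 0.34, each with overlapping groups.

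Cyp2c was the largest subfamily, with 11 genes, of which 9 had a positive difference and 0 passed. Its enzymes oxidise arachidonic acid as well as drugs. Cyp2c65 read 10.46, 10.84 and 11.30 in the deficient cells, against 10.42, 10.10 and 10.48 in the controls. Cyp2c68 read 9.32, 9.34 and 9.92 in the deficient cells, against 9.23, 8.82 and 9.17 in the controls. For both, deficient replicate 3 was the highest and control replicate 2 the lowest of the 6 arrays, and the groups overlapped in Cyp2c65 alone. The differences were 0.53 (SE 0.22) and 0.45 (SE 0.19), with limma adjusted p = 0.274 and 0.297. Without deficient replicate 3 they were 0.31 for Cyp2c65 and 0.26 for Cyp2c68, and with the Gapdh difference as a covariate 0.33 and 0.29. The genes of this subfamily are close in sequence, and the Cyp2c65 probe set is of a type that may bind relatives.

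Cyp2c29 and Cyp2c55, both inducible through CAR and PXR, were far more scattered. Cyp2c29 read 5.96, 7.03 and 7.47 in the deficient cells, against 8.64, 7.25 and 7.86 in the controls. Its difference of -1.10 (SE 0.44), or 2.14-fold lower, was the most negative of the 43 and did not pass (limma adjusted p = 0.265), and the groups overlapped. Without deficient replicate 1 it was -0.67. Cyp2c55 read 7.82, 8.84 and 10.28 in the deficient cells, against 9.66, 8.56 and 8.15 in the controls, so that the deficient group held both the lowest and the highest array. The difference of 0.19 (SE 0.61) was -0.46 without deficient replicate 3, 0.77 without deficient replicate 1, 0.62 without control replicate 1, 0.08 without control replicate 2 and -0.13 without control replicate 3. The dim Cyp2c genes ran from -0.21 for Cyp2c54, whose deficient arrays all lay below the controls, to 0.35 for Cyp2c23. Cyp2c39, at 0.24, had all deficient arrays above the controls.

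Cyp2b10, the classic target of CAR, read 10.69, 10.65 and 10.38 in the deficient cells, against 10.87, 10.17 and 10.66 in the controls. The groups overlapped and their means were nearly equal, with a difference of 0.01 (95% confidence interval -0.44 to 0.45). It ran from -0.20 without control replicate 2 to 0.16 without control replicate 1. The probe set used may bind relatives, and a probe set of the plain type stood at 0.25. Cyp2b9, Cyp2b13 and Cyp2b19, an epoxygenase of skin, were dim and lay between -0.05 and 0.09.

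In family 1, Cyp1a1, the enzyme most strongly induced by Ahr ligands, read 8.28, 7.80 and 7.62 in the deficient cells, against 8.004, 6.54 and 8.87 in the controls. The controls held both the lowest and the highest array. The difference of 0.09 (SE 0.51) was -0.54 without control replicate 2 and -0.99 with the Gapdh difference as a covariate, neither past the threshold (limma adjusted p = 0.493 and 0.517). It was 0.19 without control replicate 1, 0.63 without control replicate 3, and -0.10, 0.14 and 0.23 without deficient replicates 1, 2 and 3. Cyp1a2, mainly a liver enzyme, was dim, with 3.47, 3.67 and 3.50 in the deficient cells against 3.36, 3.39 and 3.39 in the controls, and a difference of 0.17.

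The spread within groups set these genes apart from one another. The pooled standard deviation within groups was 1.03 for Cyp2c55, 0.87 for Cyp1a1 and 0.73 for Cyp2c29, at percentiles 99.5, 99.2 and 98.8 of all genes. The median was 0.24 over the 43 genes and 0.18 over all genes. Control replicate 2 was the lowest of the 6 arrays in 24 of the 43 genes (55.8%) and in 26.4% of all genes. Among the 13 brighter genes it was lowest in 9 (69.2%), against 22.0% of all genes at or above the median signal. Deficient replicate 3 was the highest in 8 of the 13 (61.5%), against 26.2% of the same genes. Control replicate 2 also had the widest Gapdh difference, 0.93, whose part in these values was not tested beyond the fits above. Without that array the median difference of the 43 genes was 0.02, and 25 of them had a positive difference, against 31 with it.

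**Figure D3:**
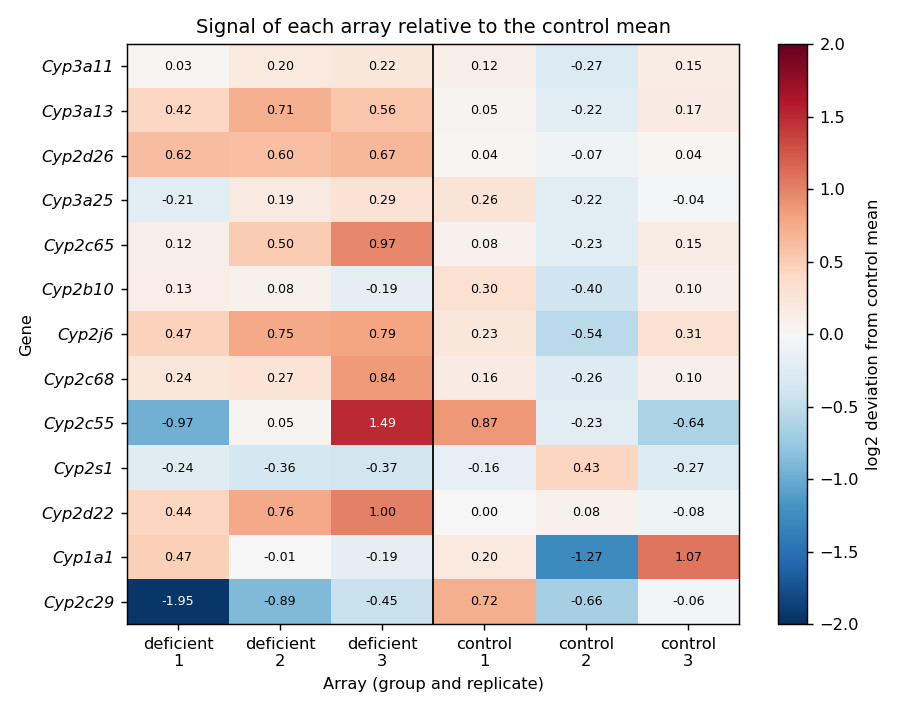
Log2 signal of the 13 brighter P450 genes on each array, relative to the mean of the 3 controls (red higher, blue lower). Control replicate 2 is below the control mean for most genes, and Cyp2c55, Cyp1a1 and Cyp2c29 vary by more than 1 log2 unit within a group.

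Cyp2u1, which hydroxylates long-chain fatty acids, had the second most negative difference. It read 5.54, 5.23 and 5.56 in the deficient cells, against 6.08, 5.62 and 6.13 in the controls, and all deficient arrays lay below all controls. The difference was -0.50 (SE 0.17, limma adjusted p = 0.211), and its other probe set stood at -0.38. Cyp2s1, an Ahr-inducible enzyme of epithelia that acts on retinoids, read 8.56, 8.44 and 8.43 in the deficient cells, against 8.64, 9.23 and 8.53 in the controls. The groups overlapped at a difference of -0.32 (SE 0.19, limma adjusted p = 0.430), with control replicate 2 the highest array. Without that array it was -0.11, and with the Gapdh difference as a covariate 0.01.

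The remaining genes, each the only one of its subfamily, were dim. Cyp2e1, the ethanol-oxidising enzyme of the liver, was at -0.10, Cyp2r1, a hydroxylase that activates vitamin D, at -0.11, and Cyp2f2 of the airway at -0.12. Cyp2g1 of the olfactory mucosa was at 0.20 and Cyp2a12 at 0.11, and the groups overlapped in all 5. RMA brings dim signals towards a floor, so that any real difference of such a gene may be understated. Of the 12 hepatocyte markers measured, the mean signal was 4.44 to 4.65 in the deficient arrays and 4.52 to 4.62 in the controls. The list was not uniform. Cps1 at 11.60 and Ambp at 6.85 were the 2 markers at or above the median signal, with differences of -0.49 and -0.39.

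The brightest probe sets of Cyp2j5 and Cyp1b1 were high on 1 array. Cyp2j5, a P450 of the kidney, read 5.05, 3.28 and 3.44 in the deficient cells, against 3.14, 2.80 and 2.89 in the controls. Cyp1b1, found in vessel walls and connective tissue, read 4.80, 3.33 and 3.00 in the deficient cells, against 3.15, 3.03 and 2.90 in the controls. For each, deficient replicate 1 stood over 1 log2 unit above all other arrays. The differences of 0.98 (SE 0.42) and 0.68 (SE 0.41) did not pass (limma adjusted p = 0.293 and 0.444), and without that array they were 0.42 and 0.14. The dimmer Cyp2j5 probe set read 3.50 on deficient replicate 1, 2.46 and 2.56 on the other deficient arrays and 1.93 to 2.59 on the controls. The dimmer Cyp1b1 probe sets did not share the rise. They read 2.31 and 2.32 on deficient replicate 1, below the other deficient arrays, with differences of 0.11 and 0.17. The 11 kidney tubule markers averaged 6.35 on deficient replicate 1, 4.39 and 4.51 on the other deficient arrays and 4.41 to 4.55 on the controls. Not every marker shared the rise. On deficient replicate 1 Umod, Slc12a1, Kap and Cdh16 read 7.12 to 8.56, while Slc22a6 at 4.78 and Slc22a12 at 5.92 were not raised. The 12 endothelial markers averaged 6.54 on the same array, 4.39 and 4.40 on the other deficient arrays and 4.19 to 4.55 on the controls. Of these, Vwf was not raised on deficient replicate 1, at 3.13. The 12 markers of fibroblast and smooth muscle averaged 5.56 there, 4.62 and 4.86 on the other deficient arrays and 4.57 to 5.10 on the controls. None of these 3 lists had a marker past the test. The 9 leukocyte markers averaged 6.60 to 6.89 in the deficient arrays and 6.66 to 7.30 in the controls. The part of such cells in the signals of both genes was not tested. None of the array values carries a detection call, so no marker can be called absent.

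**Figure D4:**
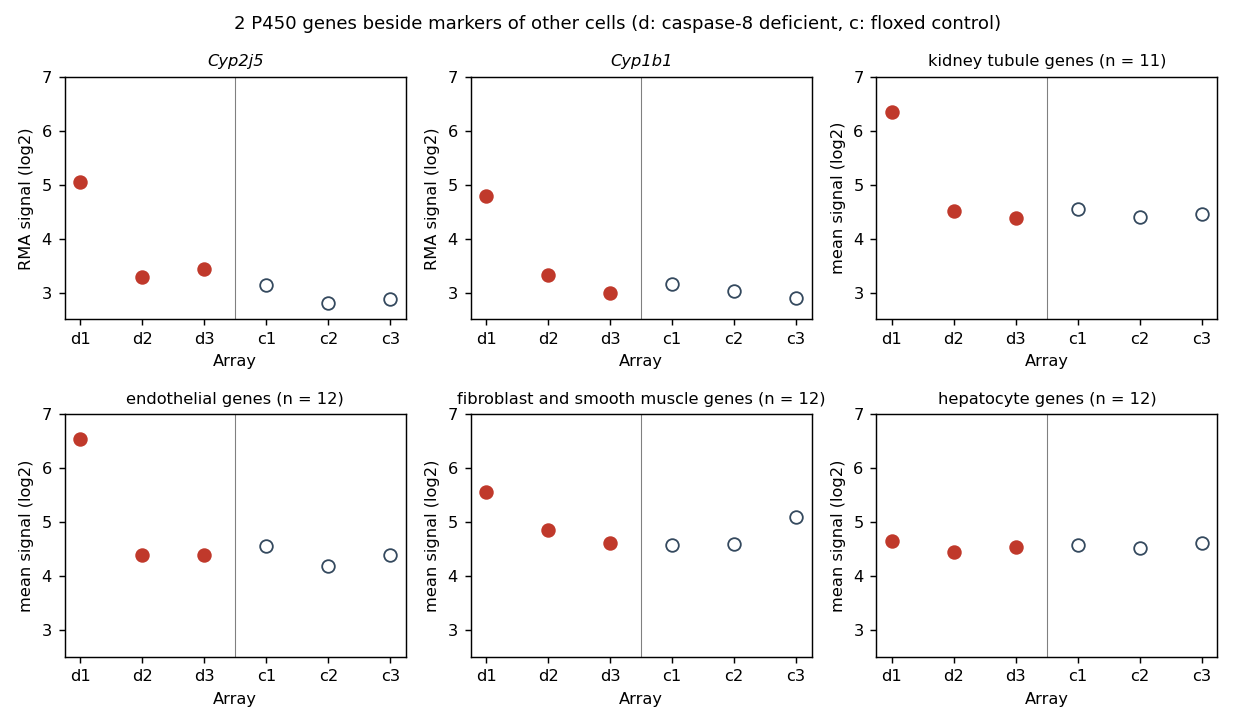
Log2 signal of Cyp2j5 and Cyp1b1 (brightest probe set of each), and the mean log2 signal of marker lists of other cells, on each array (d for caspase-8 deficient and filled, c for floxed control and open). Deficient replicate 1 stands above the other arrays for both genes and for the kidney tubule and endothelial lists, and near them for the hepatocyte list.

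A list of 14 genes covers the supply of electrons and haem to P450 enzymes. It also holds the haem oxygenases Hmox1 and Hmox2, which break haem down. Of the 14 genes 0 passed (limma), and 4 had an unadjusted p under 0.05, against 16.6% of all genes. Cyb5r3, which reduces cytochrome b5, read 11.49, 11.48 and 11.41 in the deficient cells, against 10.90, 11.04 and 10.80 in the controls. The groups did not overlap, and its difference of 0.55 had an adjusted p of 0.0778. Cyb5b, a cytochrome b5 of the outer mitochondrial membrane, stood at 0.36 and Alas1, which starts haem synthesis, at 0.33, both without overlap. Cyb5r1, a relative of Cyb5r3, was at -0.37, its deficient arrays all below the controls. Por, the reductase that serves all these enzymes, is not analysed here.

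Of 18 receptors and regulators 0 passed (limma), with a median difference of 0.00. At an unadjusted p under 0.05 there were 3 of the 18, near the share of 16.6% of all genes. Nr1i3, or CAR, read 7.99, 7.63 and 8.31 in the deficient cells, against 7.47, 6.96 and 7.44 in the controls, without overlap and with a difference of 0.69 (SE 0.21, adjusted p = 0.175). Nr1i2, or PXR, read 8.96, 8.87 and 9.15 in the deficient cells, against 8.65, 8.69 and 8.70 in the controls, also without overlap (0.32, adjusted p = 0.240). The coactivator Ncoa1 was at -0.29, with all deficient arrays below the controls, and the Ahr target Tiparp at 0.40, with overlap, or 0.17 without control replicate 2. Ahr, named for its link to family 1 and not by the naming rule, was at 0.19, with overlapping groups, and at 0.05 without control replicate 1 and 0.32 without control replicate 3.

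The list of conjugation and export genes also holds other oxidising enzymes (Fmo1, Fmo2, Fmo4, Fmo5 and Aox1) and the epoxide hydrolases Ephx1 and Ephx2. Each of these had a positive difference. Of all 27 genes of the list 0 passed (limma), and 22 had a positive difference, against 53.9% of all genes. At an unadjusted p under 0.05, 6 were higher and 0 lower, against 8.12% and 8.53% of all genes. In 8 all deficient arrays lay above the controls and in 0 below, against 11.5% and 11.2% of all genes, and the median difference was 0.26. Fmo1 and Ephx2 were among those 6, and together with Fmo4 among those 8. The list's mean signal was lowest on control replicate 2, at 7.75, against 7.98 and 8.05 on the other controls. Without that array 21 differences were positive, the median was 0.20 and the mean 0.15, against a mean of 0.24 with it. Fmo1, a flavin monooxygenase, was at 0.75, the acetyltransferase Nat2 at 0.76, and the sulfotransferases Sult1b1 and Sult2b1 at 0.64 and 0.36, with adjusted p between 0.104 and 0.201 and no overlap in these 4. Of 14 markers of absorptive enterocytes, the cells that carry P450 enzymes, 13 had a positive difference, with a median of 0.25. All 14 were at or above the median signal of all genes, where 48.2% of genes had a positive difference. In 10 all deficient arrays lay above the controls and in 0 below, against 14.5% of such genes above. At an unadjusted p under 0.05, 6 were higher and 0 lower, against 8.12% and 8.53% of all genes. Without control replicate 2, 13 were positive and the median was 0.20. The 1 marker that passed, against 0.308% of all genes called higher, was Rbp2, a retinol-binding protein. Rbp2 rose by 0.97 (adjusted p = 0.0313). Its call held without deficient replicate 1 and was lost without each of the other 5 arrays (adjusted p = 0.0719 to 0.157) and with the Gapdh covariate (adjusted p = 0.241). The mean signal of the 14 markers was 12.61 to 12.64 in the deficient arrays and 12.26 to 12.39 in the controls, beside the 13 brighter P450 genes at 9.73 to 10.20 in the deficient arrays and 9.47 to 9.99 in the controls. The part of enterocyte content in the P450 signals was not tested.

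**Figure D5:**
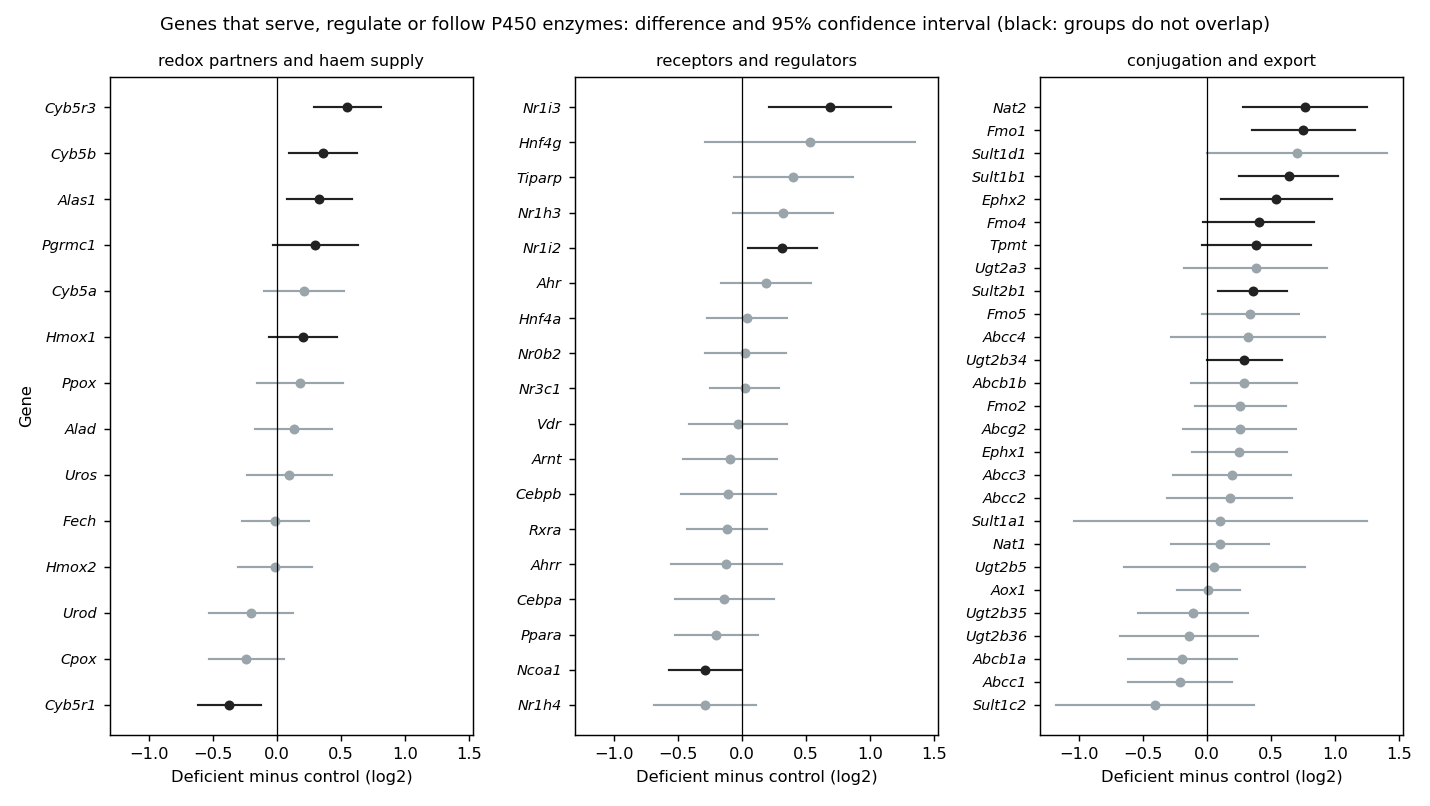
Difference, deficient minus control on the log2 scale, with 95% confidence interval (limma), for 14 genes of redox partners and haem supply, 18 receptors and regulators and 27 genes of conjugation and export. Black marks genes whose groups do not overlap, and 0 of the 59 passed the adjusted threshold. The first list includes Hmox1 and Hmox2, which break haem down. The last includes other oxidising enzymes (the Fmo genes and Aox1) and the epoxide hydrolases Ephx1 and Ephx2.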

How the data were processed

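Total RNA of 6 samples was labelled as biotinylated cRNA for an Affymetrix array, per the labels' protocols. The authors deposited log2 values made with RMA, per the submitters' processing notes; the sources used here give neither its settings nor a genome build. Of 45101 probe sets, 34945 were paired with 1 gene in the platform's gene table, whose symbols may be outdated, and 52 of them belong to the P450 genes. Those with several genes (932) or none (9160) and 64 control probe sets stayed out of the gene tests. The brightest probe set stood for each of 18193 genes, and all 43 P450 symbols were found in the RefSeq table.

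Deficient minus control was tested with limma 3.58.1 (lmFit, eBayes) in R 4.3.3, two-sided and without covariates, with Benjamini-Hochberg adjustment over the 18193 genes and a threshold of 0.05. An exact permutation test of 3 against 3 arrays cannot go below 0.1 and was not used. The labels call the arrays biological replicates, and with 3 per group the precision is limited. On simulated data for this comparison (18193 genes, 200 changed, 10 draws), 5.22%, 60.6% and 95.5% of genes changed by 0.5, 1 and 2 (log2) were called, and 3.46% of all calls were false. The simulated noise was independent between genes. It held no shifts shared by many genes on 1 array, as the real arrays do, so these rates may not hold for them.

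The P450 genes, the companion and marker lists and the promoter motifs were chosen with earlier results of these data known. Values are printed for P450 genes that passed, the 12 brightest, the 8 most positive and 8 most negative differences, and up to 4 companion genes per list by smallest p. Other names are given for context and were chosen after their values were seen. Alternatives were the replicate number as a block, dim genes left out, the mean over probe sets, other probe set types, another variance prior, array weights, median centring, repeated quantile normalisation, each array left out, the Gapdh covariate and single probe sets. Leaving out control replicates 1 and 2 was added after seeing the data. Plots and sequence searches used Python 3.11.15, pandas 2.3.3, numpy 2.4.6 and matplotlib 3.10.9.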

Additional observations from a re-analysis of the deposited data

How the results depend on the processing

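The count of P450 genes called higher was 1 in the reported fit. It was 0 with the replicate block, with repeated quantile normalisation, with the Gapdh covariate, without control replicates 1 and 2 (a setting chosen after seeing the data) and when every probe set was tested separately. It was 2 without dim genes and 3 with array weights, and 0 to 1 when each array was left out. The count called lower was 0, and 2 with array weights (Cyp2c29 and Cyp2u1). The count of companion genes was 0, and 1 without dim genes or with a variance trend (Cyb5r3) and 6 with array weights. Array weights raised the calls over all genes to 1406, against 141 in the reported fit. That count was 298 without dim genes (9097 genes tested), 252 with the trend, 36 with the Gapdh covariate, 5 without control replicates 1 and 2, and 18 to 251 with 1 array left out. Except for what each setting removes by construction, the cause was not tested.

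The median difference of the P450 genes stayed positive in every setting, between 0.01 with the Gapdh covariate and 0.17 without control replicate 1. With the Gapdh covariate the median was 0.012 for the P450 genes and 0.011 for all genes. Without control replicate 2 it was 0.020 and 0.015, and without control replicate 1 it was 0.171 and 0.021. Median centring moved the median of all genes to 0.08, and that of the P450 genes to 0.15. Over single P450 genes, 56 of 653 values changed sign, all in genes that did not pass, and 21 of the 43 genes kept their sign in every setting. The labels link same-numbered arrays by number alone. Their deviations from the group means correlated at 0.08, 0.10 and -0.01, which cannot exclude that they were paired in some way. With the replicate block Cyp2d26 stood at adjusted p = 0.0937 (limma). The absence of detection calls limits what the 30 dimmer genes can show.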

Other observations

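Of 27 P450 genes outside families 1 to 3, 1 fell and 0 rose (limma, adjusted p under 0.05), against 0.467% and 0.308% of all genes. At an unadjusted p under 0.05, 6 were higher and 1 was lower, against 8.12% and 8.53% of all genes. The gene that fell, Cyp39a1, an oxysterol hydroxylase of bile acid synthesis, read 5.59, 5.01 and 5.41 in the deficient cells, against 6.44, 6.72 and 6.35 in the controls, a difference of -1.17 (SE 0.18, adjusted p = 0.0365). Its call held without deficient replicate 1 and was lost without each of the other 5 arrays (adjusted p = 0.0761 to 0.146) and with the Gapdh covariate (adjusted p = 0.280). The fatty acid hydroxylases Cyp4b1 and Cyp4f14 had all deficient arrays above all controls, at 0.75 and 0.49, and Cyp4f16 stood at 0.89 with overlap, none past the threshold (adjusted p = 0.124, 0.106 and 0.164).

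Cyp4a14, a fatty acid hydroxylase that the kidney also makes, read 6.23 on deficient replicate 1, 3.29 and 3.11 on the other deficient arrays and 3.15, 3.27 and 3.14 on the controls. Cyp26b1, which breaks down retinoic acid, read 6.06 on the same array, 4.49 and 4.91 on the other deficient arrays and 4.49 to 4.53 on the controls. These names were chosen after their values were seen.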
